A study of Mus musculus with 39 samples.

Results

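The comparison set 3 arrays of mouse metaphase II (MII) oocytes against 3 arrays of germinal vesicle (GV) oocytes, 6 of the 39 arrays of the series, and was read across all genes. Membership came from the sample titles GV_control and MII_control alone. Each array held Cy3-labelled cRNA amplified from the RNA of 100 cells, and the 3 arrays of a stage were independent samples. No inhibitor was given to either stage, and the labels give B6D2F1 x ICR as the strain of all 6 samples. The MII oocytes were taken from the oviducts of B6D2F1 females 8 to 9 weeks old that had received 7.5 IU PMSG and 7.5 IU hCG. How the GV oocytes were collected is not given in the sources used here, so a priming difference between the stages cannot be told apart from maturation. Each of 3 slides carried 1 GV and 1 MII array, always in the same positions, so that position and stage cannot be told apart either.

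A fully grown GV oocyte is arrested in prophase of the first meiosis and holds a large store of maternal mRNA. When it resumes meiosis the germinal vesicle breaks down, the first polar body is extruded, and the egg arrests again at metaphase II until a sperm arrives. Transcription is silent through this interval, so mRNA levels can change through decay, and protein output is controlled by lengthening or shortening of poly(A) tails. The labelling reaction of these arrays primes on poly(A) with oligo(dT). A change in signal can therefore come from the number of transcripts or from the length of their tails, and the arrays do not separate these. Fewer cells and less RNA per cell cannot be told apart in such pooled samples either.

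All 15 oocyte markers examined were well above background on all 6 arrays. Array intensities differed by stage before any scaling. The 75th percentile of the log2 signal was 9.26, 9.19 and 9.28 on the GV arrays and 7.63, 7.82 and 8.03 on the MII arrays. Every MII array was dimmer, by 1.42 on the log2 scale or 2.68-fold (exact permutation p = 0.1, two-sided, the smallest that 3 against 3 allows). The percent of probes well above background was 53.6% ± 0.725 (SD, n = 3) in GV and 45.7% ± 2.02 (SD, n = 3) in MII, again with no overlap (exact permutation p = 0.1). The spike-in control RNAs went the other way. The median of the 7 spike-in probes well above background was 11.49, 12.32 and 12.42 in GV and 12.21, 13.31 and 13.22 in MII, higher in MII on each slide and by 0.833 on average (exact permutation p = 0.3). The amount of spike-in RNA per sample is not given in the sources used here.

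Hence 2 scales are given throughout. Relative signal is the log2 signal minus the 75th percentile of its array, and LFC is MII minus GV on that scale. Raw signal is the unscaled log2 signal. The raw change of every gene equals its LFC minus 1.42, so that an LFC of 1.42 marks an unchanged raw signal. A gene was called when its change was at least 1 in size with an adjusted p below 0.05. Of 18547 genes tested, 5722 (30.9%) were called higher and 3938 (21.2%) lower in MII relative to the array, and the median LFC of all genes was 0.47. On raw signal, 44 genes (0.237%) were called higher and 8790 (47.4%) lower. All 3938 genes that were lower in relative signal were also called lower in raw signal and against the spike-ins. Changes on those scales are the LFC shifted by a constant (-1.42 and -2.25). A fall therefore had to recur there, and its recurrence is no separate support. Of the 5722 that were higher in relative signal, 44 were also higher in raw signal, 5678 were not called in raw signal, and 2790 had a raw change below 0. Genes named as higher below are therefore said to be higher relative to the array, and their raw change is given or said not to be called. Counts of called members of a gene list are to be read against the 30.9% higher and 21.2% lower of all genes. Counts in raw signal are to be read against 0.237% higher and 47.4% lower. Nothing is read from a list near those shares.

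The calls were made on these same 6 arrays, so agreement of the arrays with the calls is a description and no further test. The 3 MII values of 9592 of the 9660 called genes did not overlap the 3 GV values. On all 3 slides, 9647 of the called genes moved in the direction of their call, and 7669 did so by at least 1 on each slide. Correlations of relative signal were 0.993 to 0.994 between GV arrays, 0.990 to 0.993 between MII arrays and 0.925 to 0.930 between stages. Losses were larger than gains. The median LFC of the called genes was -2.0 for those lower and 1.43 for those higher, and 751 genes fell by at least 3 against 10 that were higher by at least 3. Many dim probes were among the gains, since 1549 of the genes called higher were not well above background on all 3 MII arrays. Of these, 1350 were well above background on no MII array. Of the 12842 genes whose probe was well above background on all 6 arrays, 4132 (32.2%) were called higher and 3049 (23.7%) lower.

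**Figure D1:**
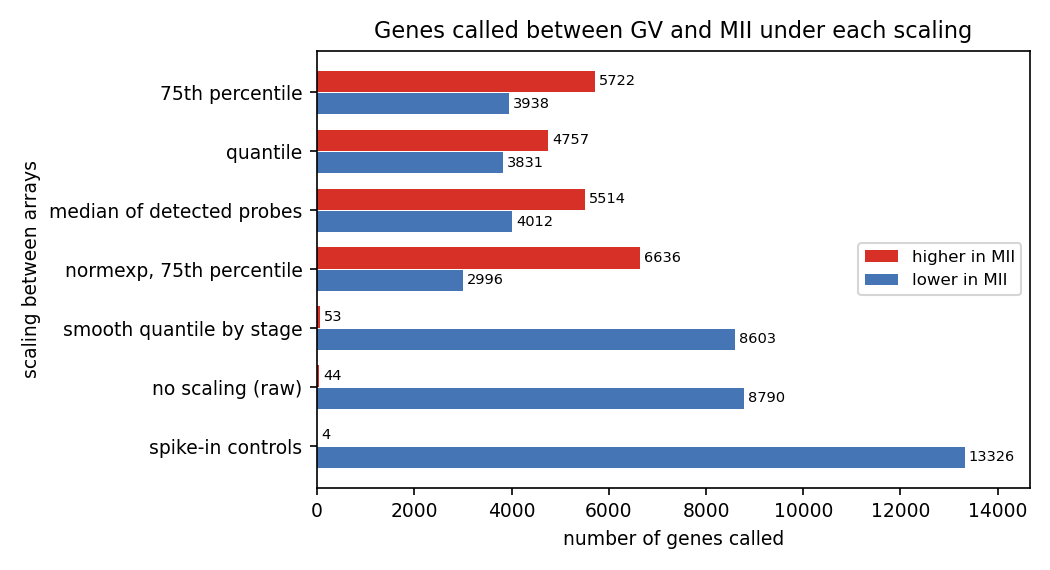
Number of genes called higher (red) and lower (blue) in MII than in GV oocytes under 7 settings for the scaling or background of the 6 arrays. Settings that set the arrays to a common level gave 4757 to 6636 genes higher, and the others gave 4 to 53 genes higher and 8603 to 13326 lower.

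The largest fall among genes well above background on all arrays was that of Spry1, an inhibitor of receptor tyrosine kinase signalling. Its relative signal was 4.64, 4.71 and 4.91 in GV and -2.69, -3.36 and -3.24 in MII, an LFC of -7.85 ± 0.20 (SE). Fen1, the flap endonuclease of DNA replication and repair, went from 5.07, 5.05 and 5.17 to -1.96, -2.0 and -2.04. The 3 MII values of each gene lay far below the 3 GV values, and only genes without overlap were ranked here. Eif4h, a translation initiation factor, fell by 6.83 ± 0.11. The other 7 of the 10 largest falls had LFCs from -6.41 to -6.16. They were Tmem39b, the uridine phosphorylase Upp1, the ribosomal protein Rps27, the membrane traffic protein Yif1a, the ubiquitin ligase subunit Sharpin, Aarsd1 and the Mediator subunit Med29.

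The largest gain was that of Rn28s1, the 28S ribosomal RNA, which carries no poly(A) tail of the mRNA kind. Its relative signal was 6.43, 6.29 and 6.21 in GV and 10.22, 10.21 and 9.91 in MII, an LFC of 3.8 ± 0.12 and a raw change of 2.38. Rnu2-10, a U2 spliceosomal RNA, likewise had an LFC of 3.27 ± 0.17 and a raw change of 1.86. Of 4 snRNA genes tested, 2 were called higher and 1 lower, and both snoRNA genes tested were called higher, against 30.9% of all genes higher. The cyclin-dependent kinase inhibitor Cdkn1c went from 1.84, 1.92 and 1.90 to 5.02, 4.92 and 4.96 (LFC 3.08 ± 0.07, raw change 1.66). Tob2, which recruits the CCR4-NOT deadenylase to mRNAs, was at 4.07 on all 3 GV arrays and at 7.06, 7.01 and 6.98 in MII (LFC 2.95 ± 0.07, raw change 1.53). These 4 genes were called higher in raw signal as well. Gfra4, a receptor for a GDNF family ligand (LFC 3.44 ± 0.28, raw change 2.02), and Zfp58, a zinc finger gene (3.08 ± 0.08, raw change 1.66), also ranked here, but each has other probes that pointed down, with lowest changes of -1.82 and -1.29.

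The remaining 4 of the 10 largest gains were mitochondrially encoded, and this led to a look at the whole mitochondrial genome after its values were seen. The mitochondrial DNA encodes 13 subunits of the respiratory chain, which are made alongside a much larger number of subunits encoded in the nucleus. All 13 were called higher relative to the array, with LFCs from 1.69 to 3.31 and a median of 2.71. In raw signal 8 of the 13 were called higher and none lower, with raw changes from 0.28 to 1.90, and against the spike-ins the changes ran from -0.56 to 1.06. ND1, a subunit of complex I, went from 2.46, 2.26 and 2.24 in GV to 5.22, 5.78 and 5.91 in MII. CYTB, the cytochrome b of complex III, went from 6.13, 6.08 and 6.04 to 8.48, 8.67 and 8.58. COX2 of complex IV had the smallest LFC, 1.69 ± 0.09, with 7.65, 7.79 and 7.75 in GV and 9.44, 9.52 and 9.31 in MII. No MII value of these 3 genes reached down to a GV value. The array design placed the chosen probe of ND3 on chromosome 1, outside the mitochondrial genome.

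The nuclear genes of the same respiratory chain went the opposite way. Of 76 tested, 55 were called lower and 5 higher, with a median LFC of -2.17. In raw signal 70 (92.1%) were called lower, against 47.4% of all genes. Atp5o, a stalk subunit of ATP synthase, went from 4.36, 4.53 and 4.43 to -1.14, -1.27 and -1.15 (LFC -5.62 ± 0.09). The complex I subunits Ndufa7 (-4.90 ± 0.09) and Ndufa9 (-4.75 ± 0.08) fell nearly as far. Ndufa10, another subunit of complex I, was among the 5 that were higher relative to the array (1.95 ± 0.08), with a raw change of 0.53 that was not called. Cox8a (1.62, raw change 0.21) and Sdha (1.28, raw change -0.13) were also in this group, neither called in raw signal.

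**Figure D2:**
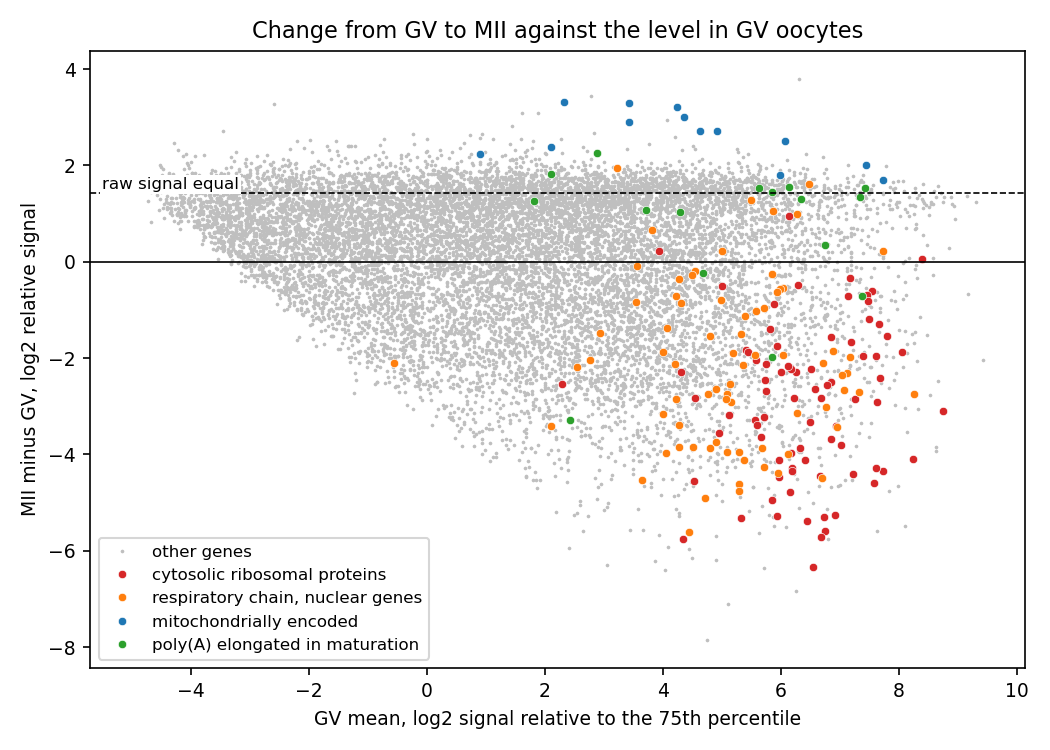
LFC from GV to MII (vertical, log2 relative signal) against the mean GV level (horizontal, log2 signal relative to the 75th percentile) for the genes well above background on all 6 arrays; the dashed line marks an equal raw signal. All 13 mitochondrially encoded genes (blue) lie above the dashed line, and most of the 79 ribosomal protein genes (red) and nuclear respiratory chain genes (orange) lie below 0.

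Cytosolic ribosomal proteins were the most uniform loss. Of 79 genes tested, 68 were called lower, none was called higher and 11 were not called, with a median LFC of -2.83. In raw signal 78 of the 79 (98.7%) were called lower, against 47.4% of all genes. Rps27 went from 6.64, 6.52 and 6.51 to 0.23, 0.27 and 0.16 (LFC -6.33 ± 0.08), and its 4 probes gave LFCs from -6.33 to -6.14. Rps19 went from 4.36, 4.38 and 4.31 to -1.48, -1.5 and -1.25, and Rpsa from 6.64, 6.72 and 6.67 to 1.13, 1.00 and 0.78. The stages of these 3 genes were more than 5 log2 units apart on every slide. Ribosomal protein genes have many processed pseudogenes that a probe can also bind, and the chosen probe of Rps27 was placed by the array design on chromosome 9, not on chromosome 3 where the gene lies.

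Proteasome subunits fell as a group too. Of 34 tested, 23 were called lower and 4 higher, with a median LFC of -1.46. In raw signal 27 (79.4%) were called lower, against 47.4% of all genes. The core particle subunits Psmb1 (-4.09 ± 0.10), Psmb7 (-3.98 ± 0.10) and Psmb5 (-3.75 ± 0.11) fell most. Psme4, an alternative proteasome activator, was higher relative to the array (1.87 ± 0.19, raw change 0.45, not called), as was the lid subunit Psmd3 (1.82 ± 0.08, raw change 0.40, not called). Of 42 spliceosome genes, 10 were called lower (23.8%) and 16 higher (38.1%) in relative signal, close to the shares of all genes (21.2% and 30.9%), and none was called higher in raw signal. Snrpd2, a core Sm protein, fell by 5.48 ± 0.08 while other Sm proteins, Snrpf (1.94 ± 0.12) and Snrpg (1.94 ± 0.09), were higher relative to the array, each with a raw change of 0.52 that was not called. Prpf3 (-2.77) and Eftud2 (-2.41), proteins of the tri-snRNP, fell, and Hnrnpk, an RNA-binding protein, was higher relative to the array (1.91, raw change 0.49, not called).

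**Figure D3:**
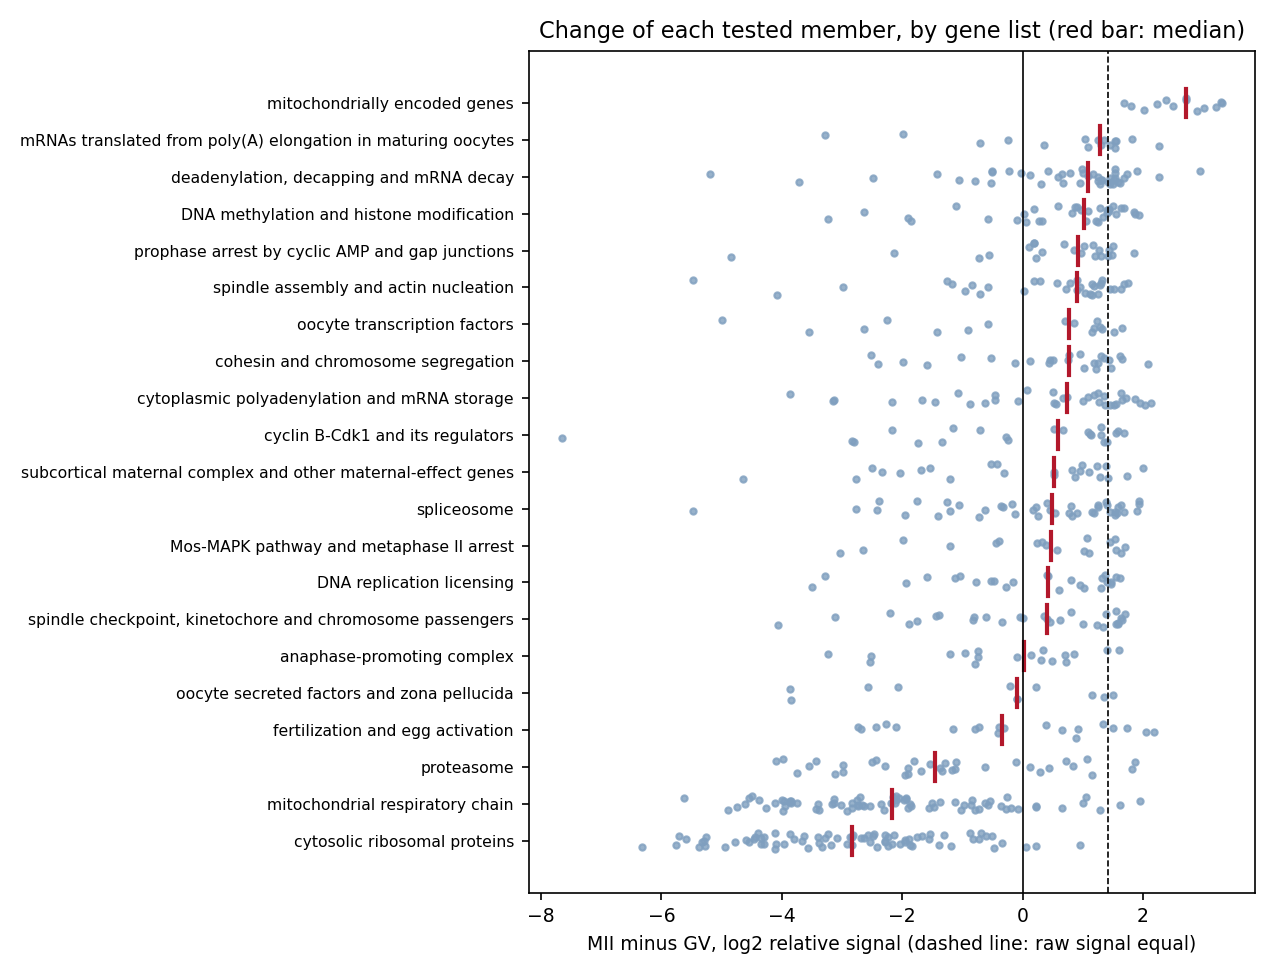
LFC from GV to MII (horizontal, log2 relative signal) of every tested member of 20 gene lists and of the mitochondrially encoded genes, with the median as a red bar; the dashed line marks an equal raw signal. Medians run from -2.83 for the ribosomal proteins to 2.71 for the mitochondrially encoded genes, and many lists hold a cluster of members near 1.42 beside a tail of losses.

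Genes of the zona pellucida and of oocyte signalling to the follicle included both lower and higher calls. Of 11 tested, 4 were called lower (36.4%) and 3 higher (27.3%), against 21.2% and 30.9% of all genes. In raw signal 8 (72.7%) were called lower, against 47.4% of all genes. Zp3, the zona glycoprotein long known as a sperm receptor, went from 8.66, 8.68 and 8.54 to 4.79, 4.83 and 4.74 (LFC -3.84 ± 0.08). Zp2 went from 6.55, 6.38 and 6.17 to 2.60, 2.50 and 2.44, and Zp1 from 8.33, 8.39 and 8.23 to 6.41, 6.21 and 6.12. All 3 zona genes were lower on every MII array than on any GV array. The growth factor Fgf8 fell by 2.57 ± 0.14 on its brightest probe. Gdf9, the oocyte growth factor that acts on granulosa cells, gave 8.69, 9.09 and 9.05 in GV and 10.11, 10.19 and 10.01 in MII. This was a gain of 1.16 ± 0.14 relative to the array and a raw change of -0.26 that was not called. Oosp1 (LFC 1.35, raw change -0.07) and Oosp3 (1.5, 0.08), oocyte-secreted proteins, were not called in raw signal either. Against the spike-ins Gdf9 was at -1.09, Oosp1 at -0.90 and Oosp3 at -0.75, the highest of the list. Bmp15, the partner of Gdf9, overlapped between stages on the relative scale, with 7.16, 7.13 and 7.11 against 7.30, 6.72 and 6.77 (adjusted p = 0.32), and was called lower in raw signal (-1.62).

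Of 16 oocyte transcription factors tested, 5 were called lower (31.2%) and 7 higher (43.8%), a few genes from the shares of all genes (21.2% and 30.9%), and none was higher in raw signal. Figla, which drives the zona genes, went from 2.94, 3.15 and 3.10 to -1.83, -2.06 and -1.90 (LFC -5.0 ± 0.10). Tbpl2, the TATA-binding protein relative of oocytes, was well above background on all GV arrays and on no MII array, at least 5.89-fold lower, and Obox6 was at least 2.40-fold lower by the same measure, though its LFC was 0.25 with normexp background correction. These bounds set the GV mean against the higher of the lowest well-measured signal on each MII array and the probe's own. Foxo3 (1.66), a regulator of follicle activation, and Yap1 (1.52), a Hippo pathway coactivator, were higher relative to the array, with raw changes of 0.24 and 0.10.

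Of 24 genes of the subcortical maternal complex and other maternal-effect genes, 8 were called lower (33.3%) and 7 higher (29.2%). In raw signal 11 (45.8%) were called lower, close to the 47.4% of all genes. Khdc3, a subunit of the complex, went from 8.02, 8.07 and 7.87 to 3.52, 3.24 and 3.26 (LFC -4.65 ± 0.11). Npm2, the oocyte nucleoplasmin, fell by 2.77 ± 0.09, Zar1l, a translational regulator of the oocyte, by 2.50 ± 0.09, and Nlrp5, the complex subunit also known as Mater, by 1.2 ± 0.08. Ooep, a further subunit, was not called (0.52, adjusted p = 0.0018). Zar1 (0.88) was not called either. H1f8, the oocyte linker histone, gave 9.30, 9.44 and 9.23 in GV and 10.77, 10.55 and 10.36 in MII. It was higher relative to the array (1.24 ± 0.13) with a raw change of -0.18. Dppa3 (1.11, raw change -0.31), which guards the maternal genome from demethylation, Tcl1 (1.42, 0.01), an Akt coactivator, Hsf1 (1.74, 0.32), the heat shock factor, and Zbed3 (2.00, 0.58) were also higher relative to the array and not called in raw signal.

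**Figure D4:**
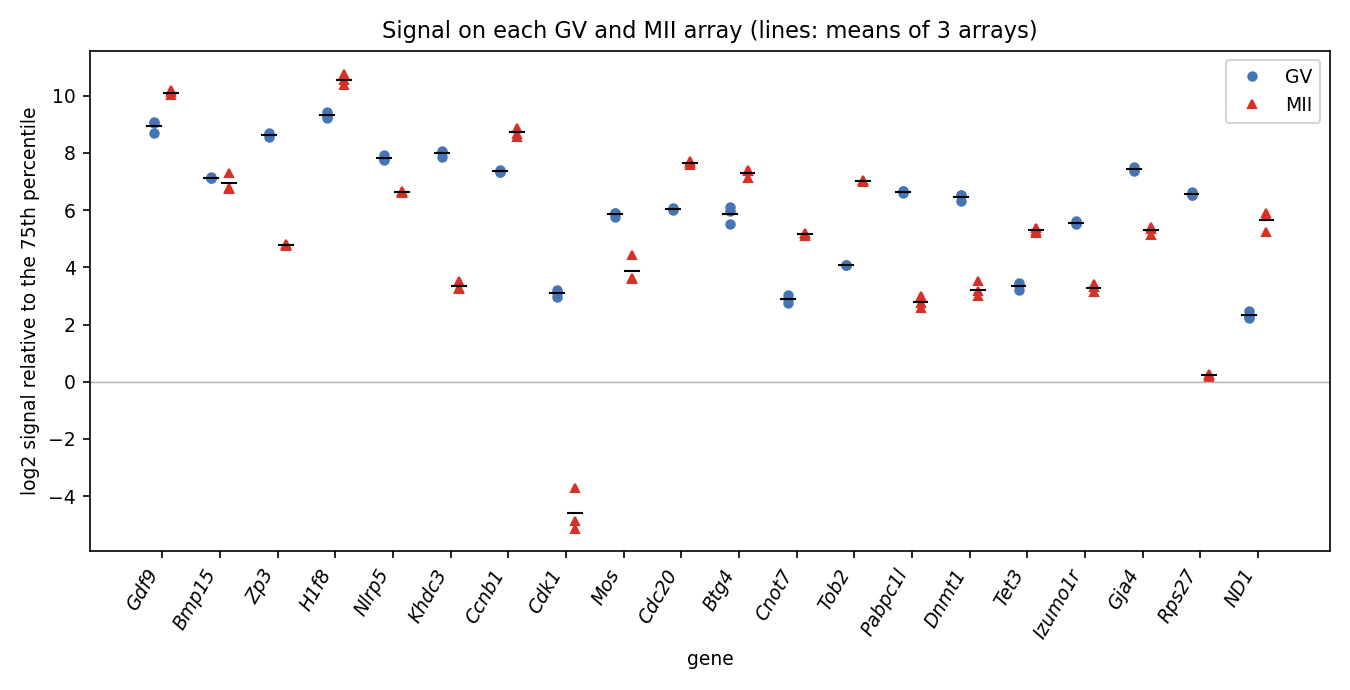
Relative signal (log2, against the 75th percentile of the array) of 20 genes on each GV array (blue circles) and MII array (red triangles), with the mean of 3 arrays as a line. Zp3, Khdc3, Cdk1 and Rps27 lie far lower on the MII arrays, ND1 and Tob2 higher, and the Bmp15 values of the stages overlap.

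Meiotic progression is driven by cyclin B with Cdk1, and metaphase II arrest is held by the Mos kinase and by inhibition of the anaphase-promoting complex. Of 22 genes for cyclin B, Cdk1 and their regulators, 7 were called lower (31.8%) and 10 higher (45.5%), with none higher in raw signal. Ccnb1, cyclin B1, gave 7.33, 7.40 and 7.32 in GV and 8.88, 8.67 and 8.56 in MII. Its LFC was 1.35 ± 0.11 and its raw change -0.06. Cyclin A2, Ccna2 (1.58, raw change 0.16), and the Cdk-binding proteins Cks1b (1.68, 0.26) and Cks2 (1.55, 0.13) behaved alike on these scales. Ccnb3, cyclin B3, fell by 2.84 ± 0.16 and Wee1, the inhibitory kinase of Cdk1, by 2.80 ± 0.11. Wee2, the oocyte form of Wee1, was not called in relative signal (-0.24) and was called lower in raw signal (-1.65). Cdk1 itself depended on the probe. Its brightest probe went from 2.96, 3.09 and 3.22 to -4.87, -5.13 and -3.71 (LFC -7.66 ± 0.38), well above background on 1 MII array. Its other probes, each well above background on 3 of the 6 arrays, gave LFCs of -3.08 and -0.25.

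In the Mos-MAPK list, 4 of 18 genes were called lower (22.2%) and 8 higher (44.4%). Mos went from 5.90, 5.88 and 5.77 to 4.43, 3.61 and 3.58, an LFC of -1.98 ± 0.24. Camk2g, the calmodulin kinase that acts at egg activation, fell by 3.04 ± 0.18 and Mapk3 by 2.65 ± 0.12. Map2k1, the kinase above the MAPKs, was higher relative to the array (1.55, raw change 0.13), as were the phosphatase subunits Ppp3ca (1.70, 0.28) and Ppp2r5c (1.64, 0.22). Fbxo43, the inhibitor of the anaphase-promoting complex also called Emi2, had an LFC of 1.1 ± 0.12 and a raw change of -0.32. Of 18 genes of the anaphase-promoting complex, 4 were called lower (22.2%), 2 higher (11.1%) and 12 not at all. Its subunits Anapc13 (-3.23 ± 0.09) and Anapc7 (-2.51 ± 0.11) and its activator Fzr1 (-2.54 ± 0.12) fell, Anapc7 on its brightest probe. The other activator, Cdc20, went from 6.08, 6.01 and 6.04 to 7.64, 7.73 and 7.57, an LFC of 1.60 ± 0.08 and a raw change of 0.18. Cdc27 had an LFC of 1.40 and a raw change of -0.01.

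Among 29 genes of the spindle checkpoint, kinetochore and passenger complex, 6 were called lower (20.7%) and 10 higher (34.5%), close to the 21.2% and 30.9% of all genes. Zwint (-4.07 ± 0.12) and Spc24 (-3.12 ± 0.09), kinetochore proteins, and the checkpoint kinase Bub1 (-2.21 ± 0.10) fell, Zwint on its brightest probe. Knl1 (1.70), a kinetochore scaffold, Aurkc (1.65), the Aurora kinase of germ cells, and Mad2l1 (1.64), a checkpoint protein, were higher relative to the array with raw changes from 0.23 to 0.28. Bub1b was not called in relative signal (0.35, adjusted p = 0.056) and was called lower in raw signal (-1.07). Of 25 cohesin and segregation genes, 5 were called lower (20%) and 11 higher (44%). The condensin subunits Ncaph (-2.51 ± 0.15) and Smc4 (-2.40 ± 0.10) and the meiotic cohesin Smc1b (-1.98 ± 0.13) fell, while the cohesin loader Nipbl (2.09), the mitotic kleisin Rad21 (1.66) and Stag1 (1.62) were higher relative to the array. None of these gains was called in raw signal.

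Spindle assembly and actin nucleation genes had 5 of 32 members lower (15.6%) and 14 higher (43.8%). Tacc3, a spindle protein, showed the largest loss of the list, from 8.11, 8.17 and 8.05 to 2.82, 2.62 and 2.47 (LFC -5.48 ± 0.11). Spire2, an actin nucleator, was at least 9.68-fold lower, being well above background on no MII array, whereas its relative Spire1 was higher relative to the array (1.75, raw change 0.33). Tubb2b, a beta-tubulin, fell by 2.99 ± 0.12. Tpx2, an activator of Aurora A at the spindle, had an LFC of 1.04 ± 0.08 and a raw change of -0.37. Arpc2 (1.68), of the Arp2/3 complex, and the formin Diaph3 (1.64) were higher relative to the array, with raw changes of 0.26 and 0.22. In the list for prophase arrest by cyclic AMP, 2 of 22 genes were called lower (9.09%) and 10 higher (45.5%). Gja4, the gap junction protein connexin 37 that links oocyte and granulosa cells, went from 7.49, 7.41 and 7.35 to 5.39, 5.33 and 5.14 (LFC -2.13 ± 0.10). Akap1, an anchor for protein kinase A, fell by 4.84 ± 0.19 on its brightest probe. The receptor Gpr3, which keeps cyclic AMP high, had an LFC of 1.43 and a raw change of 0.01, and Adcy9, an adenylyl cyclase, 1.85 and 0.43. Gjc1 (1.5) and Prkacb (1.48), a catalytic subunit of protein kinase A, had raw changes of 0.08 and 0.06. Pde3a, the phosphodiesterase that lowers cyclic AMP, was not called (0.86).

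Stored mRNAs are masked by RNA-binding proteins, activated through the cytoplasmic polyadenylation element bound by Cpeb1, and removed by deadenylation and decapping. The list of mRNAs known to gain poly(A) and be translated in maturing oocytes had 11 of 16 tested members higher (68.8%), against 30.9% of all genes. There were 2 lower, and the median LFC was 1.28. In raw signal none was called higher and 5 (31.2%) were called lower, against 47.4% of all genes. Dazl, a translational activator, gave 3.62, 3.74 and 3.77 in GV and 5.0, 4.67 and 4.70 in MII (LFC 1.08 ± 0.12, raw change -0.34). Slbp, the histone mRNA binding protein, had an LFC of 1.53 ± 0.08, the cytokine Il7 of 1.82 ± 0.11 and Orc6, of the origin recognition complex, of 1.56 ± 0.12, with raw changes from 0.11 to 0.40. Mos and Cdc6 (-3.29 ± 0.11), a replication licensing factor, were the members called lower in relative signal. Plat, tissue plasminogen activator, overlapped between stages on the relative scale, with 7.49, 7.38 and 7.28 in GV and 7.33, 6.37 and 6.33 in MII (LFC -0.71, adjusted p = 0.064). It was called lower in raw signal (-2.13).

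Of 43 deadenylation, decapping and decay genes, 23 were called higher (53.5%) and 5 lower, with a median LFC of 1.08, and Tob2 was the member called higher in raw signal. Members called higher in both this list and the preceding one include Btg4, Cnot7, Cnot6l, Dcp1a and Dcp2, so the counts of these lists are not separate. Btg4, the adaptor of CCR4-NOT that acts in maternal mRNA decay, gave 5.50, 6.10 and 5.95 in GV and 7.13, 7.37 and 7.40 in MII (LFC 1.45 ± 0.18, raw change 0.04). The deadenylase subunit Cnot7 went from 2.76, 3.03 and 2.88 to 5.15, 5.10 and 5.19 (LFC 2.26 ± 0.10, raw change 0.84, not called). Cnot6 (1.90 ± 0.12) and Cnot6l (1.54 ± 0.10), deadenylases, were also higher relative to the array. So were Dcp2 (1.26 ± 0.10), the decapping enzyme, and its partner Dcp1a (1.31 ± 0.09). The raw changes of these 4 genes ran from -0.16 to 0.48. The scaffold of the complex moved the other way. Cnot1 fell by 2.49 ± 0.14 and Cnot10 by 3.72 ± 0.10. Dis3, the exosome nuclease, and Zfp36l2, a decay factor of AU-rich mRNAs, were also called lower, but each was well above background on 1 of 3 MII arrays, so that the size of the fall was not measured. The LFC of Zfp36l2 was 0.26 with normexp background correction.

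Of 35 genes of cytoplasmic polyadenylation and mRNA storage, 17 were called higher (48.6%) and 7 lower (20%). Pabpc1l, the embryonic poly(A)-binding protein, went from 6.67, 6.66 and 6.59 to 3.00, 2.58 and 2.75 (LFC -3.86 ± 0.12). The poly(A) polymerase Papolg (-3.15 ± 0.11) and Cpsf1, of the cleavage and polyadenylation complex (-3.13 ± 0.22), fell. Papola, the canonical poly(A) polymerase, had an LFC of 2.14 ± 0.11 and a raw change of 0.73. Ybx1 (2.04, raw change 0.63) and Igf2bp2 (1.96, raw change 0.54), mRNA-binding proteins, were higher relative to the array on their brightest probes, and neither was called in raw signal. Cpeb1 was not called in relative signal (-0.63, adjusted p = 0.0034), and was called lower in raw signal (-2.05). In the replication licensing list 6 of 25 were lower (24%) and 9 higher (36%), close to the 21.2% and 30.9% of all genes. Orc3 fell by 3.49 ± 0.08 on its brightest probe and Gins4 by 1.94 ± 0.11, while Gmnn (1.62), an inhibitor of licensing, and the kinase Cdc7 (1.47) were higher relative to the array, with raw changes of 0.20 and 0.06.

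Of 34 genes for DNA methylation and histone modification, 5 were called lower (14.7%) and 17 higher (50%), with none higher in raw signal. Dnmt1, the maintenance DNA methyltransferase, went from 6.54, 6.52 and 6.33 to 3.52, 3.16 and 3.00 (LFC -3.24 ± 0.16). Dnmt3l, the cofactor of oocyte de novo methylation, went from 5.64, 5.51 and 5.40 to 3.65, 3.69 and 3.54, and the histone deacetylase Hdac1 fell by 2.63 ± 0.18 on its brightest probe. Dnmt3a, the de novo enzyme, was not called (0.91). Tet3, the dioxygenase that oxidizes methylcytosine in the zygote, went from 3.22, 3.45 and 3.39 to 5.28, 5.38 and 5.21 (LFC 1.93 ± 0.10, raw change 0.52). Kdm5b, an H3K4 demethylase, had an LFC of 1.87 and a raw change of 0.45. Suv39h1, an H3K9 methyltransferase, was well above background on no GV array and on 2 MII arrays. Its measured values were 3.59-fold higher relative to the array, with a raw change of 0.43 that was not called.

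Fertilization and egg activation genes had 6 of 20 members lower (30%) and 5 higher (25%). Izumo1r, the egg receptor for sperm also called Juno, went from 5.53, 5.62 and 5.50 to 3.15, 3.40 and 3.30 (LFC -2.27 ± 0.10). Cd9, the tetraspanin required for gamete fusion, went from 4.84, 4.83 and 4.86 to 2.36, 2.07 and 2.05. The calcium channel Orai1 (-2.73 ± 0.15) and the zinc transporter Slc39a6 (-2.44 ± 0.14) fell as well. Itpr1, the receptor that releases calcium at fertilization, was not called (0.89). The calcium pump Atp2a2 (2.05 ± 0.10) and the exocytosis protein Snap25 (1.74 ± 0.16) were higher relative to the array, as was A2ml1 (2.19 ± 0.15), a protease inhibitor, on its brightest probe, and none of the 3 was called in raw signal.

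The sequences of the 60-base probes were read for short motifs, because the cytoplasmic polyadenylation element TTTTAT or TTTTAAT lies in the 3′ untranslated region of the mRNAs it controls. Of 14494 probes that could be set against the strand of their gene in RefSeq (GRCm38.p6), 99.5% were on the sense strand, and the motifs were searched on that strand only. Matches of different motifs may overlap. Among the 12842 probes well above background on all arrays, TTTTAT or TTTTAAT was present in 5.96%, in 8.42% of the 4132 called higher, 5.44% of those not called and 3.57% of the 3049 called lower. The order did not extend to the largest gains: the share was 8.66% at LFCs from 1 to 2 and 3.52% in the 199 probes at 2 or more. The polyadenylation hexamers AATAAA or ATTAAA ran in the opposite order, with 15.9% in those higher, 22.2% in those not called and 24.8% in those lower. For ATTTA the shares were 9.70%, 8.14% and 7.31%, for TGTANATA 1.77%, 1.93% and 1.57%, and for TTTTT, a run that also lacks G and C, 15.8%, 12.7% and 9.81%. Base composition moved with the calls, the median GC content being 40% in those higher and 43.3% in those lower. Within probes of 21 to 24 G and C bases, TTTTAT or TTTTAAT was in 12.4% of those higher and 6.84% of those lower, and AATAAA or ATTAAA in 20.5% and 32.6%. Other bins differed. With 25 to 29 such bases the first motif was in 3.26% of those higher, 3.35% of those not called and 1.77% of those lower, and below 21 the hexamers were in 46.0% of those higher and 46.2% of those lower. These shares are a description of probes and were not tested.

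Stretches of 30 bases from the probes of named genes show both kinds of match. They are given on the sense strand, 5′ to 3′, in the mm9 coordinates of the array design, with the motif in capitals. Whether a match lies in a 3′ untranslated region was not checked. The first set was higher relative to the array and holds TTTTAT or TTTTAAT.
Ccnb1, chr13:101548731-101548760, minus strand: tctcatttgctgTTTTAATttatacatctg
H1f8, chr6:115900175-115900204, plus strand: cgattctgaagcTTTTATtgtctaataagc
Cdc20, chr4:118105534-118105563, minus strand: acgcatttcctttcttgtTTTTATtttatt
Gpr3, chr4:132765641-132765670, minus strand: tttgcttattTTTTATcagagaaatcatag
Aurkc, chr7:6955737-6955766, plus strand: catgtggattgcttgttttctcTTTTATga
The next set fell and holds AATAAA.
Upp1, chr11:9036137-9036166, plus strand: caactcctgggcAATAAAtctattttttca
Rpsa, chr9:120040646-120040675, plus strand: agatggaaggaaAATAAAgttgctaaaagc
Psmb5, chr14:55232961-55232990, minus strand: ctccatggctatAATAAAtaatagtacctc
The motif did not fix the direction of a gene. Papolg holds TTTTAT and fell, and Btg4 holds AATAAA and was higher relative to the array.
Papolg, chr11:23762935-23762964, minus strand: gcagaaataagcagtggaTTTTATtgaaac
Btg4, chr9:50927678-50927707, plus strand: aggaagacttgaAATAAAtactcttgtgtt

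Probes of the same gene did not always move together. Of 3421 genes with several probes well above background on all arrays, the LFCs spanned less than 1 in 2154, more than 2 in 579, and at least 1 in each direction in 243. Igf2bp2 was one of them. Its probe at chr16:22059582-22059641 went from 5.25, 5.40 and 5.34 in GV to 7.49, 7.20 and 7.18 in MII, and its probe at chr16:22059260-22059319 from 5.93, 5.97 and 5.93 to 3.44, 3.36 and 3.34. The gene lies on the minus strand, so that the second of these probes is the nearer to the 3′ end. Ybx1, also on the minus strand, had LFCs of 2.04, 1.61 and -1.31 at its 3 probes, the last again the most 3′. Cdc6 (-3.29 and 1.38), Akap1 (-4.84 and 1.25) and Fgf8 (-2.57, -1.66 and 1.04) were divided too. A further probe of Gmnn, placed on the strand opposite to the chosen one, had an LFC of -3.99 against 1.62. Other probes of Anapc7 (1.49 and -1.82 against -2.51), Knl1 (-1.36 against 1.70) and A2ml1 (-1.21 against 2.19) included an opposite direction. Other probes moved little or less for Zwint (-0.21 against -4.07), Orc3 (0.58 against -3.49) and Hdac1 (-0.38 and -1.38 against -2.63). Over 1211 genes whose outermost probes lay within 2000 bases of each other, the LFC of the 3′ probe was lower by at least 1 in 227 and higher by at least 1 in 146, with a median difference of -0.05. Among the 61 of these with LFCs of at least 1 in opposite directions, the 3′ probe was the lower in 40 and the higher in 21.

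Genes well above background at a single stage were nearly all GV genes. There were 1095 with every probe below that mark on all MII arrays and a probe above it on all GV arrays, and 2 in the other direction, and 937 of the 1095 had a bound above 1-fold. With detection taken as positive and significant the counts were 364 and 16. The MII arrays were dimmer as a whole, and the part of this in the counts was not tested. The brightest of the GV genes were Arhgef11, at least 151-fold lower in MII, and Spry4, a relative of Spry1, at least 136-fold lower. Rbmxl2, an RNA-binding protein of germ cells, was at least 75.1-fold lower, Fbxl13 at least 34.7-fold and Lin7b, a polarity protein, at least 27.6-fold. The currently named gene detected in MII alone was Tmsb4x, thymosin beta 4, at least 6.91-fold higher relative to the array. Its mean raw signal was 5.34 in MII and 3.97 in GV, so the raw difference was smaller.

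Markers of cells that surround or could accompany the oocyte were checked on the same arrays. Of 30 granulosa and cumulus markers, 17 were well above background on all GV arrays and 9 on all MII arrays. The summed relative signal of the list was 5.69 to 5.73 in GV and 6.82 to 6.96 in MII. An equal raw signal would read 1.42 higher in MII on this scale. The brightest member was Foxl2, an ovarian transcription factor. It gave 4.74 to 4.79 in GV and 6.04 to 6.12 in MII, with a raw change of -0.11 that was not called. Foxl2 means also lay between 5.78 and 6.56 at every later embryo stage. The sum therefore cannot be read as an amount of follicle cells. Also well above background on all arrays of both stages were Cyp19a1, Kitl, Nr5a2, Npr2, Has2, Ptgs2, Cd44 and Serpine2. Amh, a defining granulosa hormone, was well above background on no array. Inha, Inhba, Inhbb, Fshr, Cyp11a1, Hsd17b1, Amhr2 and Star, further granulosa genes, were well above background on all 3 GV arrays and on no MII array. The relative signal of Star was nevertheless higher in MII, at -4.55, -3.9 and -3.97 against -4.88, -4.31 and -4.77 in GV. The means of the others were lower in MII. Of 14 blood markers, 4 were well above background on all arrays of each stage, and the globin Hba-a1 was so on none. Of 12 oviduct markers, 4 were so in GV and 3 in MII. The part of such cells in the results was not tested.

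The untreated controls of later stages place these changes in the course of development, as levels on the same relative scale with no test. On this scale Gdf9 was highest in MII at 10.1, though its raw change from GV was -0.26 and not called. It declined to 8.36 ± 0.31 (SD, n = 3) in the 1-cell embryo and -0.97 ± 0.09 in the blastocyst. Rps27 stayed at its MII level in the 1-cell embryo (-0.07 ± 0.13) and reached 4.01 ± 0.63 in the 2-cell and 9.07 ± 0.13 in the 4-cell embryo, above its GV level. ND1 did not return to its GV level of 2.32 at any later stage, where it lay between 5.39 and 7.35. Mos continued to fall, to 1.12 ± 0.09 in the 1-cell embryo and -2.23 ± 0.16 in the 2-cell embryo. Dnmt1 was at 4.52 ± 0.02 in the 1-cell embryo, above its MII level of 3.22, and between 0.95 and 1.63 from the 2-cell stage on. Spry1, the gene with the largest fall, was well above background on no array of the 1-cell embryo and reached 1.83 ± 0.18 in the blastocyst.

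**Figure D5:**
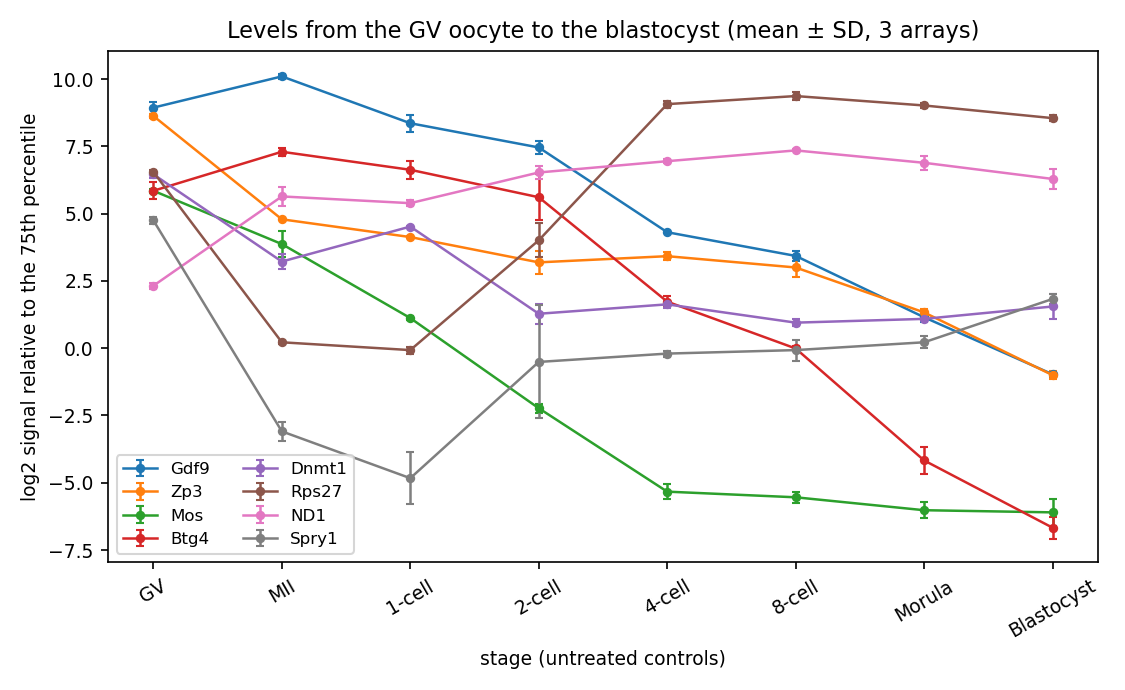
Relative signal (log2, against the 75th percentile of the array; mean ± SD of 3 arrays) of 8 genes in the untreated controls from the GV oocyte to the blastocyst. On this scale Gdf9 and Btg4 peak in MII, though their raw changes from GV (-0.26 and 0.04) were not called. Rps27 falls from GV to MII and rises again from the 2-cell stage, and ND1 stays above its GV level of 2.32.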

How the data were processed

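The 6 arrays of untreated mouse oocytes (3 GV, 3 MII) gave the comparison, with 18 arrays of untreated embryos used for levels. The authors labelled cRNA with a Low Input Quick Amp kit, hybridized 1-colour Agilent arrays of 60-base probes and deposited the intensity of each spot after background subtraction and detrending, not normalized between arrays; the labels name Feature Extraction 9.5.1.1 and the file headers 10.7.1.1. The log2 values of the series matrix, which the authors filtered, imputed and smooth-quantile normalized, were used only as an alternative. Outlier spots were removed, spots of a probe averaged, and log2 intensity taken relative to the 75th percentile of each array. Of 55681 probes, 27325 had a current gene name by accession, 3523 by symbol and 551 by synonym in RefSeq GRCm38.p6. A probe was kept if the scanner software had marked it as detected over background at least once among the 3 GV arrays and at least once among the 3 MII arrays, and the brightest probe stood for its gene. Stages were compared with limma 3.58.1 in R 4.3.3 and Benjamini-Hochberg adjustment over 18547 genes, without a block. The fit was tested on simulated data in which few genes changed, as many up as down. That simulation could not test the choice of scaling, on which the calls higher in MII depend. Array-wide values were compared by exact permutation.

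Named genes were the 10 largest changes in each direction among called genes well above background on all 6 arrays without overlap, leaving out provisional names, up to 3 called members of each list in each direction, a fixed set of oocyte genes, and the 5 brightest genes detected at a single stage. Members and lists were chosen with earlier results of these data known, and the mitochondrially encoded set and the spike-in scaling after their values were seen. Alternatives covered scaling, background, filter, probes, samples, weights and the slide as a block. The number of arrays limits the precision, and p-values measure the spread between these samples.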

Additional observations from a re-analysis of the deposited data

How the results depend on the processing

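The scaling decided the calls higher in MII. Against 5722 higher and 3938 lower genes, smooth quantile normalization gave 53 and 8603, no scaling 44 and 8790, and spike-in scaling 4 and 13326. The deposited matrix called 5438 genes, 53 of them higher, and without a detection filter 8664 were higher. Requiring a call on both the scaled and the unscaled signal left 44. Leaving out 1 array at a time gave 9240 to 9665 called genes, 5220 to 5845 higher and 3820 to 4020 lower. With detection defined as positive and significant, 364 genes were specific to GV and 16 to MII. Spike-in scaling and the requirement of both scales were chosen after seeing the data.

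Some named genes turned direction. Under smooth quantile normalization, no scaling and the deposited matrix, in that order, LFCs were -0.25, -0.26 and -0.24 for Gdf9, -0.07, -0.07 and -0.07 for Oosp1, -0.3, -0.31 and -0.27 for Dppa3, -0.18, -0.18 and -0.18 for H1f8, -0.05, -0.06 and -0.03 for Ccnb1, -1.04, -1.07 and -1.02 for Bub1b, -0.35, -0.37 and -0.3 for Tpx2, -0.32, -0.34 and -0.26 for Dazl, -0.09, -0.11 and -0.06 for Dcp1a, -0.14, -0.16 and -0.06 for Dcp2, and -0.12, -0.13 and -0.08 for Sdha. Under the first 2 of these Fbxo43 was at -0.29 and -0.32, and without scaling Cdc27 was at -0.01. Gdf9 was at -0.02 under quantile normalization. With the mean of probes Gfra4 was at -0.34, Igf2bp2 at -0.3 and Gmnn at -1.19. With normexp Zfp36l2 was at 0.26 and Obox6 at 0.25. Without scaling each value is the LFC minus 1.42, so a positive LFC below 1.42 turned negative there by construction. The mean of probes takes in the other probes of Gfra4, Igf2bp2 and Gmnn, which include falls. The cause of the other turns was not tested.

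With slide as a replicate block, 9719 genes were called, 5788 higher and 3931 lower. Same-numbered arrays deviated together with correlations of 0.21, 0.07 and 0.12, and each array correlated best with its own number. The number of arrays and the dimmer MII signal limit what could be measured.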
